A study of Mus musculus with 21 samples.

Results

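Cholesterol and lipid synthesis and handling was followed in mouse aortic valves through 35 named genes that make, sense, move, store, release or export sterols, or make and desaturate fatty acids. They were picked by gene symbol from the 20872 genes of the expression table, and 34 of the 35 were listed there; Hmgcs1 is not analysed here. The 34 comprised 11 sterol synthesis enzymes, 5 regulators of sterol sensing, 7 genes of sterol transport, ester storage and ester hydrolysis, 3 genes of efflux and lipoproteins, and 8 genes of fatty acid synthesis and desaturation.

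Cells make cholesterol from acetyl-CoA through mevalonate, the isoprenoids, squalene and lanosterol. When sterol runs low in the endoplasmic reticulum, SCAP escorts the SREBP transcription factors to the Golgi, where they are cut and released to switch on synthesis and uptake genes; INSIG proteins hold the complex back when sterol is plentiful. Surplus cholesterol is stored as ester by SOAT1, freed again by ester hydrolases, and exported by the transporters ABCA1 and ABCG1 to lipoproteins, and lipid-laden macrophages are a known feature of diseased human aortic valves.

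RNA-seq was made from 21 libraries of aortic valve, all from mice that lacked the telomerase RNA gene Terc (Terc-/-, generation 2). The groups, by library title, were Notch1 heterozygous mice (N1+/-, written N1het) with aortic valve stenosis given XCT790 (n = 3), N1het mice with stenosis given control solvent (n = 3), N1het mice with healthy valves given XCT790 (n = 5), N1het mice with healthy valves given solvent (n = 6), and Notch1 wild-type mice (WT) with healthy valves given solvent (n = 4). XCT790, an inverse agonist of the nuclear receptor ERR-alpha, was given by a daily injection into the abdomen, 5 mg/kg/day, during 4 weeks of treatment that began when mice were 4 weeks old. No label says which libraries come from which animal or whether animals were pooled, so p-values measure the spread between libraries only. In 6 libraries a second label contradicts the title: N1het stenosis 1, 2 and 3 carry XCT790 there, and N1het healthy XCT790 1, 2 and 3 carry solvent. Groups follow the titles below, and by the second label the comparison of stenotic with healthy solvent-treated valves would join stenosis and XCT790.

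Depth, recovered as whole reads per gene, was 8417033 to 27265905 reads per library with a median of 13655842. The 6 deepest libraries were spread over all groups except N1het stenosis. The mitochondrial share was 0.05814 to 0.5209% in these 6 libraries and 0.8507 to 8.399% in the other 15, without overlap. All 3 N1het stenosis libraries were among the 15. Depth and mitochondrial share therefore cannot be told apart in the alternatives that concern deep libraries. FPKM stands for fragments per kilobase of transcript, scaled to the mapped reads of the library. Notch1 itself spanned 19.4 to 50.03 FPKM over N1het libraries and 26.6 to 46.5 FPKM over WT libraries, so its level did not separate the genotypes, and no label says which part of the gene the allele lacks. Valve interstitial markers were high in every library, with summed levels of 6606 to 13984 FPKM over N1het libraries and 8481 to 10425 FPKM over WT libraries. Among 11 adipocyte markers, Adipoq was at 0 in 18 of 21 libraries, Fabp4 in 1 (median 13.6 FPKM), and Lipe and Pparg were found in every library. Summed adipocyte markers varied from 6.03 to 361 FPKM over N1het libraries and from 5.33 to 247 FPKM over WT libraries. Summed heart muscle markers varied from 71.3 to 4889 FPKM over N1het libraries and from 36.1 to 3304 FPKM over WT libraries. In bulk valve RNA, fewer cells of a type and less RNA per cell cannot be told apart.

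All 34 members were expressed above the filter, a mean of 1 FPKM over all libraries. Apoe, the apolipoprotein that carries lipid between cells, led by far, with 1611 to 3716 FPKM and a mean of 2657 FPKM. Npc2, which hands cholesterol out of lysosomes, followed at a mean of 196.5 FPKM, and the desaturase gene Scd1 at 64.1 FPKM. The acid lipase gene Lipa averaged 53.0 FPKM and the desaturase gene Fads1 43.0 FPKM. The sterol synthesis enzymes were the lowest group, with member medians of 1.63 to 12.9 FPKM, against 9.53 to 27.7 FPKM for the regulators. Mvk, mevalonate kinase, spanned 0.0352 to 14.4 FPKM on 1 to 826 reads, and Mvd, mevalonate diphosphate decarboxylase, was at 0 in 3 libraries. The range between the highest and lowest library exceeded 10-fold for 14 of 34 members, and stayed under 3-fold for 3, Npc1, Apoe and Scd1. Within groups the members' median SD was 0.57 on the log2 scale, against 0.67 over all genes tested.

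**Figure D1:**
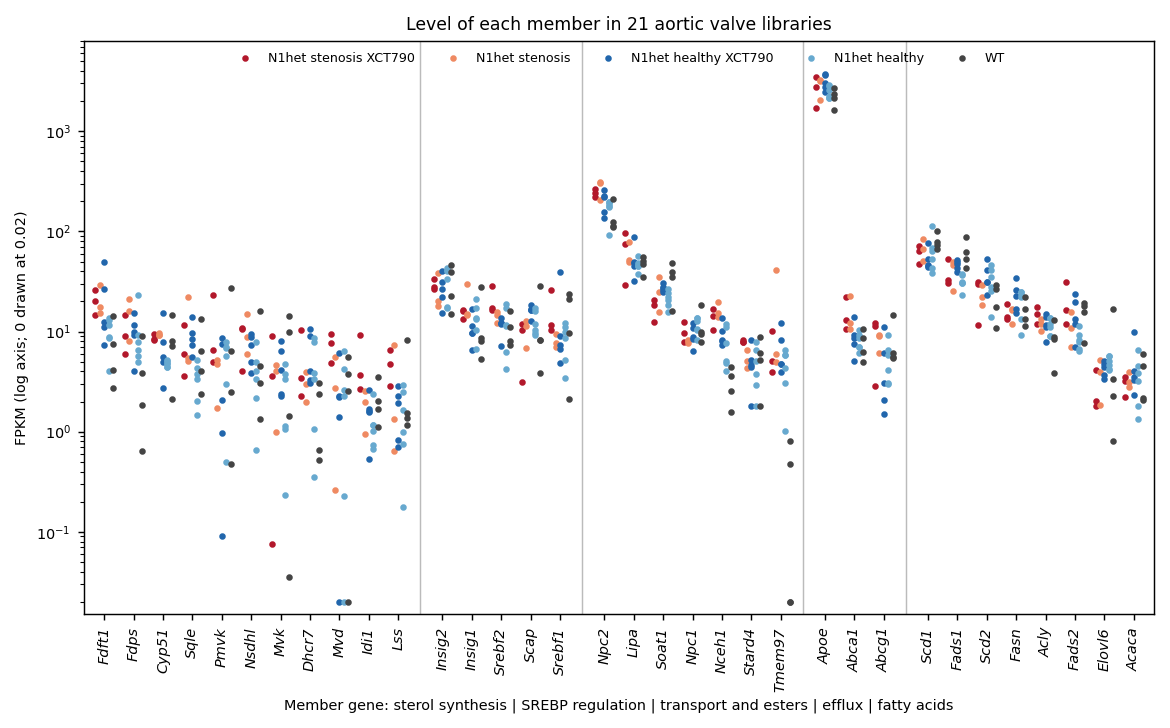
Level of each of 34 member genes in FPKM on a log axis, with 1 point per library, coloured by group and ordered by role; a level of 0 is drawn at 0.02. Apoe lies between 1611 and 3716 FPKM, and the sterol synthesis enzymes at the left scatter most.

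Stenotic against WT valves gave the one call among the members: Nceh1 rose. Nceh1 (ENSMUSG00000027698) encodes a membrane hydrolase that frees cholesterol from its esters, known from macrophages. Tmem97 (ENSMUSG00000037278), which encodes the sigma-2 receptor, a sterol-responsive membrane protein that binds NPC1, stood next to the threshold. RefSeq promoters (250 bases before to 50 after the start, GRCm38.p6) are shown for these genes because they had the smallest p-values of the members, with the NF-Y box, CCAAT or its complement ATTGG, in capitals, since NF-Y is a known partner of the SREBPs.
Nceh1, chr3:27182754-27183053, plus strand: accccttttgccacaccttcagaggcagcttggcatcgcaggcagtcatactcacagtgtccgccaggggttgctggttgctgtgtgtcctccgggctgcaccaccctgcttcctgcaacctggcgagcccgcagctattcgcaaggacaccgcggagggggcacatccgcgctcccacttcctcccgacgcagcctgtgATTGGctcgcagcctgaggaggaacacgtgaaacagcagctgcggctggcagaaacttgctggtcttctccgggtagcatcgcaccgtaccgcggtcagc
Tmem97, chr11:78550686-78550985, minus strand: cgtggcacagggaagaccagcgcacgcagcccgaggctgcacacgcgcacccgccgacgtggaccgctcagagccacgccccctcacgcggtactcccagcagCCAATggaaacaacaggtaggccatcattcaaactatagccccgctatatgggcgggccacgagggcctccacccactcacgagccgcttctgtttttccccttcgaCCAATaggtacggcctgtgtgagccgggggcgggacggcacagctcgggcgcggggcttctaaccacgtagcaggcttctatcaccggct
The Nceh1 promoter holds 1 box, at -50 to -46, and the Tmem97 promoter holds 2, at -147 to -143 and at -40 to -36 from the start. Of 34 members, 25 matched a promoter in the RefSeq table. Fdps, Fdft1, Sqle, Npc1, Stard4, Abcg1, Scd1, Scd2 and Fads1 did not. Of the 25, 19 (76%) held CCAAT on either strand, against 41.1% of all genes with a promoter, expressed in valves or not. A gene counted when any of its promoters matched, and genes with several, such as Insig2, had more chances. Over all genes, 27025 genes had 32851 promoters. The sterol regulatory element spelled TCACNCCAC was in 0 of 25, against 1.44% of genes, and the ERR element spelled TNAAGGTCA in 0 of 25, against 1.43% of genes. A match describes letters only, and the absence of one concerns only this spelling in these 300 bases.

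Nceh1 had 10.3, 14.2 and 16.8 FPKM in N1het stenosis XCT790 valves and 13.8, 15.4 and 19.8 FPKM in N1het stenosis valves. It had 8.01, 8.27, 10.1, 13.6 and 7.33 FPKM in N1het healthy XCT790 valves, 4.07 (lowest), 6.41 (median) and 11.9 (highest) FPKM in N1het healthy valves, and 4.45, 2.56, 3.62 and 1.58 FPKM in WT valves. All 3 N1het stenosis libraries lay above every N1het healthy and every WT library, while N1het healthy and WT libraries overlapped. Differences are on the log2(FPKM + 1) scale, and a call is an adjusted p under 0.05. Against WT the log2 difference of stenotic valves was 2.14 ± 0.37 (SE; limma, Benjamini-Hochberg adjusted p = 0.0362). Among all 14966 genes tested, 0.0334% passed this threshold, and 1 of 34 members did. The call was lost when any one of the 7 libraries compared was left out, with limma adjusted p-values from 0.053 without WT 3 to 0.365 without N1het stenosis 3, although the log2 difference stayed between 1.94 and 2.30. By the second label these stenotic valves had XCT790, so the comparison joins genotype, stenosis and possibly the drug.

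Tmem97 had 10.1, 5.13 and 3.94 FPKM in N1het stenosis XCT790 valves and 5.92, 4.92 and 41.1 FPKM in N1het stenosis valves. It had 3.93, 4.77, 4.74, 12.1 and 8.20 FPKM in N1het healthy XCT790 valves, 1.01 (lowest), 5.05 (median) and 6.47 (highest) FPKM in N1het healthy valves, and 0.473, 0, 0.814 and 0 FPKM in WT valves. Every one of the 17 N1het libraries lay above all 4 WT libraries, which held 14, 0, 10 and 0 reads. The 2 WT libraries at 0 allow up to 0.206 and 0.259 FPKM (3 reads, counting error only). The log2 difference from WT was 3.23 ± 0.60 in stenotic valves (limma, Benjamini-Hochberg adjusted p = 0.0507) and 1.96 ± 0.50 in healthy N1het valves (adjusted p = 0.409). Without N1het stenosis 3, the library at 41.1 FPKM, the stenotic difference was 2.32 (limma adjusted p = 0.383). In the authors' deposited table, Tmem97 carried a mark of significance in both comparisons with WT. Nceh1 carried one in the stenotic comparison and Fads1 in the healthy one. Of 20872 genes, 281 were marked for stenotic and 139 for healthy valves. No member was marked between stenotic and healthy N1het valves (262 genes marked). None was marked between XCT790 and solvent in healthy (26 genes) or stenotic valves (56 genes).

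**Figure D2:**
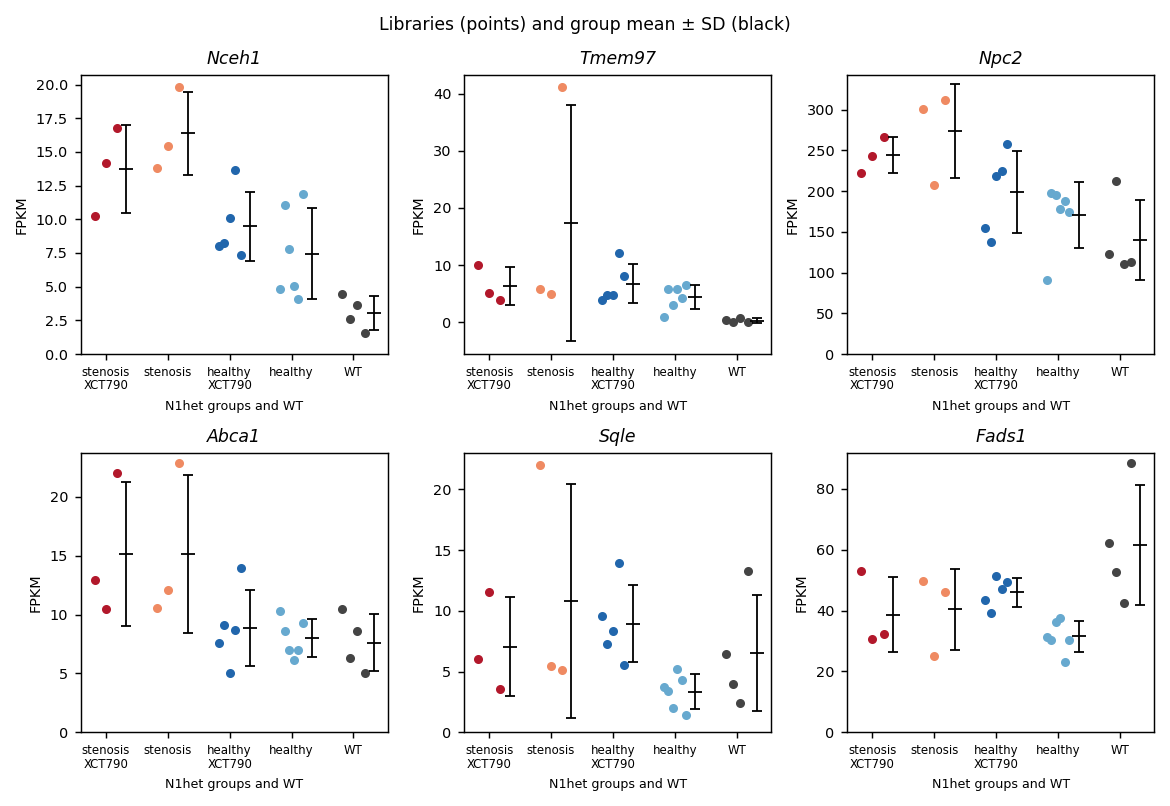
FPKM of Nceh1, Tmem97, Npc2, Abca1, Sqle and Fads1 in each library (points) with the group mean and SD (black), from N1het stenosis XCT790 at the left to WT at the right of each panel. Nceh1 is at 13.8 to 19.8 FPKM in stenotic valves and at 1.58 to 4.45 FPKM in WT valves.

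At an unadjusted p under 0.05, 7 of 34 members differed between stenotic and WT valves, against 10.4% of all genes tested, and none but Nceh1 passed adjustment. Beside Nceh1 and Tmem97 these were Fdps, farnesyl diphosphate synthase (log2 difference 1.97 ± 0.56), Fdft1, squalene synthase (1.56 ± 0.54), Npc2 (0.99 ± 0.29), the cholesterol exporter gene Abca1 (0.88 ± 0.36) and, lower, Fads1, the delta-5 desaturase (-0.60 ± 0.28). Fdps was at 21.3, 8.12 and 16.1 FPKM in N1het stenosis valves, against 1.83, 0.646, 3.84 and 8.96 FPKM in WT valves, where WT 4 reached into the stenotic range. Fdft1 was at 15.3, 29.3 and 17.6 FPKM in stenotic valves, against 4.16, 7.58, 2.76 and 14.3 FPKM in WT valves, without overlap. Levels of 4 members, Fdft1, Tmem97, Nceh1 and Abca1, did not overlap, against 8.61% of all genes tested, although the nearest libraries of Abca1 were at 10.6 and 10.5 FPKM. All 20 macrophage markers were higher in stenotic than in WT valves, 15 of them at an unadjusted p under 0.05. So were all 6 melanocyte markers (median 1.99, 2 at that threshold) and 12 of 14 heart muscle markers (median 1.21, 0 at that threshold), while 12 of 13 valve interstitial markers were lower, 4 of them at that threshold. The part of these markers in the members' differences was not tested. The members' median log2 difference was 0.11, with 19 higher and 15 lower, against 0.06 over all genes tested.

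Stenotic against healthy N1het valves, both given solvent, tested disease within a genotype. No member passed adjustment, where 0.0334% of all genes did, and 6 of 34 had an unadjusted p under 0.05, against 9.6% of all genes tested. All 6 were higher in stenotic valves, where 4.59% of all genes were higher at that threshold: Nceh1 (log2 difference 1.12 ± 0.34, limma Benjamini-Hochberg adjusted p = 0.266), Tmem97 (1.27 ± 0.55), Nsdhl, a sterol demethylation enzyme (1.27 ± 0.55), Sqle, squalene epoxidase (1.22 ± 0.49), Abca1 (0.78 ± 0.33) and Npc2 (0.70 ± 0.27). The count of 6 was 2 without N1het stenosis 3 and 3 without N1het stenosis 1. In all, 26 members were higher and 8 lower, with a median of 0.31, against -0.04 over all genes tested, and the members' median was 0.16 without N1het stenosis 1. By role, 9 of 11 sterol synthesis enzymes were higher with a median of 0.47, 6 of 7 transport and ester genes with a median of 0.33 and 3 of 3 efflux genes with a median of 0.60, while 3 of 5 regulators of sterol sensing were higher with a median of 0.03 and the fatty acid genes centred at 0.04.

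Levels did not overlap between these groups for 6 members, against 5.46% of all genes tested. Npc2 was at 300.9, 206.8 and 311.9 FPKM in stenotic valves, against 91.0 (lowest), 183 (median) and 198 (highest) FPKM in healthy valves. Abca1 was at 10.6, 12.1 and 22.9 FPKM in stenotic valves, against 6.14 (lowest), 7.79 (median) and 10.3 (highest) FPKM in healthy valves. For Abca1 the nearest libraries were almost level, and N1het stenosis 3 stood well above the others. Cyp51, lanosterol demethylase, was at 9.57, 9.26 and 9.17 FPKM in stenotic valves, against 4.46 to 5.21 FPKM in healthy valves, 2 narrow and separate ranges. It varied more in other healthy valves, at 2.11 to 14.5 FPKM in WT and 2.74 to 15.3 FPKM in N1het healthy XCT790 valves. The log2 difference of Cyp51, 0.83 ± 0.42, had an unadjusted limma p of 0.0607, in a fit that takes the spread from all 5 groups. Fdft1 and Nceh1 were the other members without overlap on the high side. Npc1, the lysosomal partner of Npc2, was at 7.68 to 8.17 FPKM in stenotic valves, against 8.23 to 13.8 FPKM in healthy valves, the one member without overlap on the low side.

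Nsdhl was at 8.86, 5.93 and 14.9 FPKM in stenotic valves, against 0.657 (lowest), 3.70 (median) and 7.82 (highest) FPKM in healthy valves. Sqle, which makes the first oxygenated sterol precursor, was at 22.0, 5.42 and 5.09 FPKM in stenotic valves, against 1.46 (lowest), 3.56 (median) and 5.20 (highest) FPKM in healthy valves. The Sqle difference leaned on N1het stenosis 1, and leaving out single libraries gave log2 differences of 0.59 to 1.55. Stenotic and healthy valves overlapped for both genes. The Tmem97 difference leaned on N1het stenosis 3, the library at 41.1 FPKM, and was 0.36 without it.

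Levels of macrophage and monocyte markers were read beside these values. Their summed level over 20 genes was 2466 to 10327 FPKM in N1het stenosis XCT790 valves, 4758 to 8757 FPKM in N1het stenosis valves, 1691 to 5163 FPKM in N1het healthy XCT790 valves, 1250 to 2964 FPKM in N1het healthy valves and 1652 to 2962 FPKM in WT valves. All 20 were higher in stenotic than in healthy solvent-treated valves, 19 of them at an unadjusted p under 0.05, with a median log2 difference of 1.48, and no marker was at 0 in any library. Valve interstitial markers were lower for 12 of 13 genes, with a median of -0.46. The part of cell makeup in the members' differences was not tested.

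**Figure D3:**
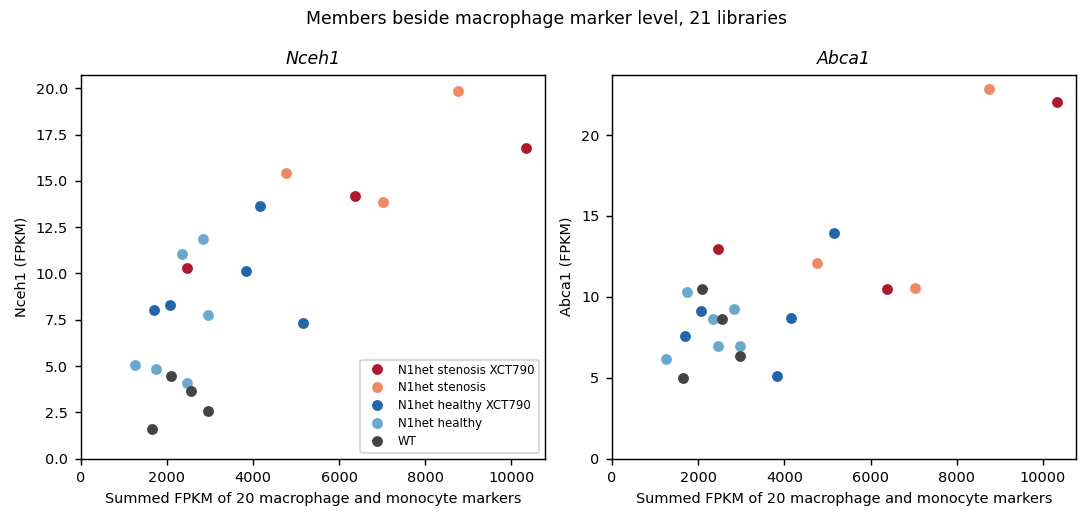
FPKM of Nceh1 (left) and Abca1 (right) against the summed FPKM of 20 macrophage and monocyte markers, with 1 point per library, coloured by group. The 3 N1het stenosis libraries lie at 4758 to 8757 FPKM of markers and the 4 WT libraries at 1652 to 2962 FPKM.

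The same contrast was also read under XCT790. No member and none of the 14966 genes passed adjustment (0%), and 3 of 34 members had an unadjusted p under 0.05, against 5.08% of all genes tested. Idi1, isopentenyl diphosphate isomerase, was at 3.69, 2.64 and 9.29 FPKM in N1het stenosis XCT790 valves, against 0.537, 1.68, 1.60, 2.62 and 1.58 FPKM in N1het healthy XCT790 valves (log2 difference 1.16 ± 0.43). Scap, the escort of the SREBPs, was at 11.9, 10.4 and 3.16 FPKM in stenotic valves, against 12.7, 16.3, 16.9, 18.4 and 16.5 FPKM in healthy valves (-1.01 ± 0.44). Soat1, which stores cholesterol as ester, was at 12.3, 18.3 and 20.5 FPKM in stenotic valves, against 24.7, 27.2, 30.8, 25.9 and 27.6 FPKM in healthy valves (-0.67 ± 0.31). All 3 were without overlap, as was Srebf2, the SREBP that drives sterol genes (0.79 ± 0.38), and the share of all genes without overlap was 4.03%. Nceh1 differed by 0.50 ± 0.36 here and Abca1 by 0.71 ± 0.34, and neither reached an unadjusted p of 0.05. Without N1het stenosis XCT790 3 the differences of Idi1 and Scap were 0.72 and -0.49, and with groups set by the second label that of Idi1 was 0.36. The count of 3 members was 5 without N1het healthy XCT790 1 and 5 without N1het healthy XCT790 5. It ran from 2 to 5 over left-out libraries and from 1 to 7 over the other alternatives. Macrophage markers were higher for 19 of 20 genes, endothelial markers for 10 of 10 (median 0.66, 1 at an unadjusted p under 0.05), and valve interstitial markers lower for 13 of 13, and their part was not tested.

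Stenotic and healthy N1het valves were also compared as an average over both agents, by the titles. By the second label every stenotic library had XCT790, and this average would not exist. By the titles, 56 genes (0.374%) passed adjustment in this average, and no member did. That count was 2 without N1het stenosis 3, 20 to 33 without N1het stenosis 1, N1het stenosis XCT790 2 or 3, or N1het healthy XCT790 1 or 2, and 0 with only libraries under 16000000 reads. Nceh1 (log2 difference 0.81 ± 0.25, limma Benjamini-Hochberg adjusted p = 0.171) and Abca1 (0.74 ± 0.24, adjusted p = 0.198) came nearest. Idi1 (0.77 ± 0.30), Srebf2 (0.60 ± 0.27) and Npc2 (0.51 ± 0.19) also had an unadjusted p under 0.05, which makes 5 of 34, against 11.5% of all genes tested. All 5 were higher in stenotic valves, against 6.01% of all genes. The count ran from 4 to 8 over left-out libraries, with 8 without N1het stenosis XCT790 1, and from 2 to 10 over the other alternatives. Apoe differed by -0.04 ± 0.16. All 20 macrophage markers were higher in this average, 16 of them at an unadjusted p under 0.05, as were all 10 endothelial markers (median 0.48, 1 at that threshold), and 12 of 13 valve interstitial markers were lower. Their part was not tested.

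**Figure D4:**
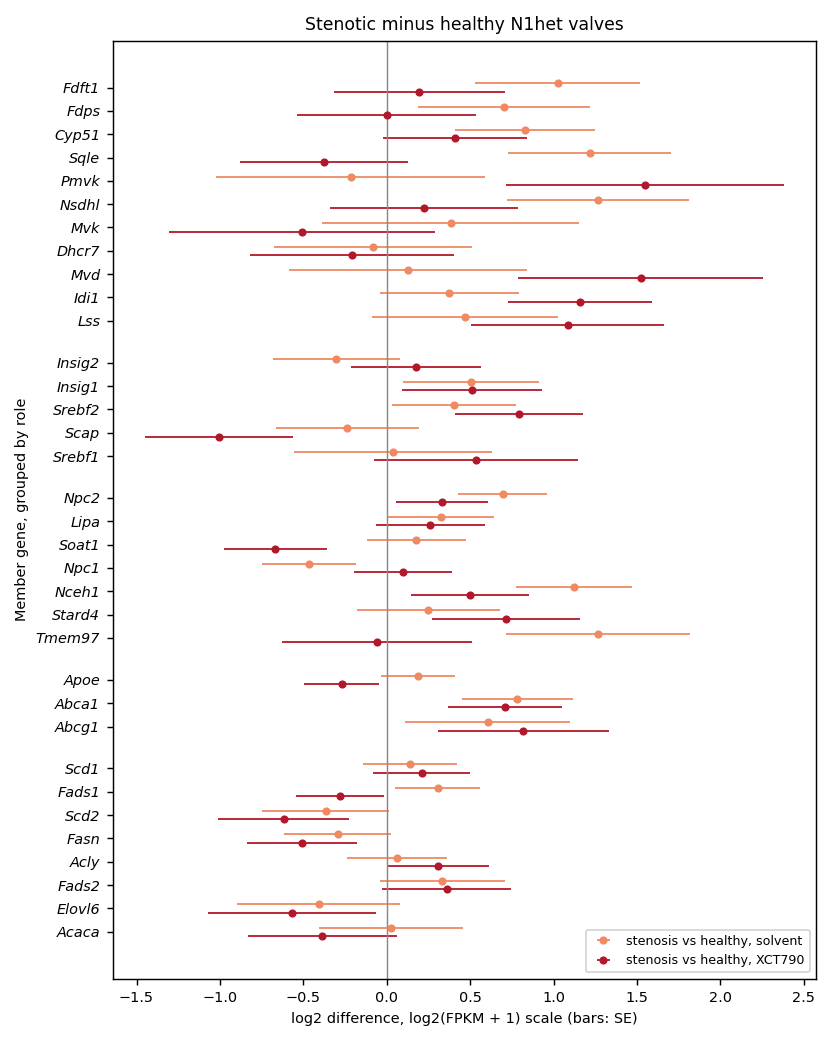
Log2 difference of stenotic minus healthy N1het valves for 34 members, on the log2(FPKM + 1) scale with SE bars, for solvent (light) and XCT790 (dark), grouped by role. Nceh1 is at 1.12 with solvent and 0.50 with XCT790, and the fatty acid genes at the bottom lie on both sides of 0.

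Healthy N1het against WT valves compared the genotypes without stenosis, in solvent. No gene passed adjustment (0%), and 6 of 34 members had an unadjusted p under 0.05, against 7.42% of all genes tested. Tmem97 (1.96 ± 0.50), Fdps (1.27 ± 0.47) and Nceh1 (1.02 ± 0.31) were higher in N1het valves. Fads1 (-0.91 ± 0.23), its neighbour Fads2, the delta-6 desaturase (-0.75 ± 0.34), and Soat1 (-0.59 ± 0.27) were lower. Tmem97 and Fads1 did not overlap, against 1.16% of all genes tested. With groups set by the second label, Fads1 would overlap. Members were split evenly, 17 higher and 17 lower, with a median of 0.01, against 0.09 over all genes tested. Heart muscle markers were higher in N1het healthy valves for 13 of 14 genes and melanocyte markers for 6 of 6 (median 0.99). Smooth muscle markers were lower for 8 of 9, and no marker of these 3 lists had an unadjusted p under 0.05. Macrophage markers were higher for 7 of 20 genes and lower for 13 (median -0.13), 1 of the lower at that threshold. The part of these markers in the members' values was not tested.

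Fads1 and Fads2 make the highly unsaturated fatty acids and lie side by side on chromosome 19, with 0 coding genes between them. Fads1 was at 52.9, 30.8 and 32.4 FPKM in N1het stenosis XCT790 valves and 49.7, 25.1 and 46.2 FPKM in N1het stenosis valves. It was at 43.4, 39.3, 51.2, 46.9 and 49.3 FPKM in N1het healthy XCT790 valves, 23.2 (lowest), 30.8 (median) and 37.6 (highest) FPKM in N1het healthy valves, and 62.3, 52.8, 42.6 and 88.5 FPKM in WT valves. The 6 healthy solvent-treated N1het libraries lay below all healthy XCT790 and all WT libraries. Fads2 was at 23.9, 11.9, 13.4, 19.6 and 6.95 FPKM in N1het healthy XCT790 valves, 6.45 (lowest), 8.03 (median) and 11.5 (highest) FPKM in N1het healthy valves, and 15.8, 7.62, 19.5 and 18.0 FPKM in WT valves, so that its groups overlapped.

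XCT790 against solvent in healthy N1het valves gave no called gene (0%), and 3 of 34 members at an unadjusted p under 0.05, against 2.65% of all genes tested. All 3 were higher with XCT790, where 1.63% of all genes were: Sqle (log2 difference 1.21 ± 0.42), Fads2 (0.71 ± 0.32) and Fads1 (0.54 ± 0.22), each with a limma Benjamini-Hochberg adjusted p of 1. Sqle was at 9.57, 7.26, 8.38, 13.9 and 5.57 FPKM with XCT790, above the highest solvent-treated library at 5.20 FPKM. Sqle and Fads1 did not overlap, against 0.267% of all genes tested. The comparisons of healthy N1het valves with WT and with XCT790 share the 6 solvent-treated libraries, so the opposite signs of Fads1 and Fads2 in them are not independent. Across members, 26 of 34 were higher with XCT790, with a median of 0.23, against 0.03 over all genes tested. All 20 macrophage markers were higher too, 4 of them at an unadjusted p under 0.05, with a median log2 difference of 0.55. Heart muscle markers were lower for 14 of 14 genes (median -1.09) and endothelial markers for 8 of 10, none at that threshold, and the part of these markers in the members' values was not tested. By the second label only 2 of the 5 XCT790 libraries had the drug, and with groups set by that label the members' median was 0.44. Both Sqle and Fads1 would then overlap. N1het healthy XCT790 1, at 9.57 FPKM of Sqle, and N1het healthy XCT790 3, at 51.2 FPKM of Fads1, would count as solvent-treated.

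XCT790 against solvent in stenotic valves gave no called gene (0%). Idi1 alone had an unadjusted p under 0.05, 1 of 34 members against 3.35% of all genes tested, at 3.69, 2.64 and 9.29 FPKM with XCT790, against 2.56, 0.956 and 2.00 FPKM with solvent (log2 difference 1.02 ± 0.48). Without N1het stenosis XCT790 3 the difference was 0.58 and the count 0, and without N1het stenosis 1 or N1het stenosis XCT790 2 the count was 2. The ranges of Idi1 did not overlap, by a narrow margin, and neither did those of Srebf1, Srebf2 and Stard4, a cytosolic sterol carrier, which makes 4 of 34 members against 8.75% of all genes tested. By the second label all 6 stenotic libraries had XCT790, and neither this comparison nor the interaction of stenosis and XCT790 would exist. Sqle was at 6.01, 11.5 and 3.56 FPKM in N1het stenosis XCT790 valves, against 22.0, 5.42 and 5.09 FPKM in N1het stenosis valves, which overlap. The interaction of stenosis and XCT790 for Sqle was -1.59 ± 0.70 with an unadjusted p of 0.0338 (limma, Benjamini-Hochberg adjusted p = 1). This was 1 of 34 members, near the 2.98% of all genes tested, and no gene passed adjustment (0%). The Sqle interaction was -0.97 without N1het stenosis 1, and the count was 0 without N1het stenosis 1, N1het healthy 6 or N1het healthy XCT790 4, 2 without N1het healthy 1 or N1het stenosis XCT790 3, and 4 without N1het stenosis 2. Between XCT790 and solvent in stenotic valves, macrophage markers were lower for 19 of 20 genes and higher for 1 (median -0.26, 0 at an unadjusted p under 0.05). All 20 macrophage markers had an interaction below 0 (median -0.91, 1 at an unadjusted p under 0.05), and their part was not tested.

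**Figure D5:**
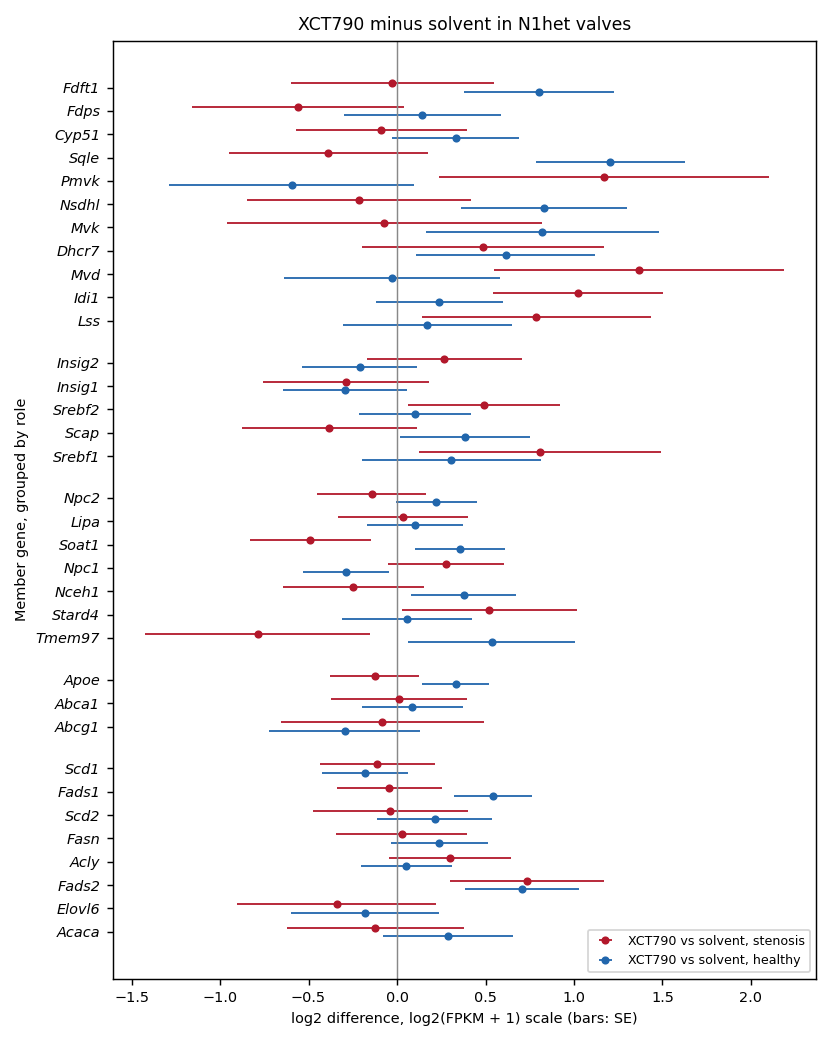
Log2 difference of XCT790 minus solvent in stenotic (red) and healthy (blue) N1het valves for 34 members, on the log2(FPKM + 1) scale with SE bars, grouped by role. Sqle is at 1.21 in healthy valves and at -0.39 in stenotic valves, and Idi1 at 1.02 in stenotic valves.

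Shared variation between libraries of a group was described by correlation. Over 21 libraries, after removal of group means, the median Pearson r between sterol synthesis enzymes was 0.08 over 55 pairs and that over all 561 member pairs was 0.03, against 0.01 over all pairs of genes tested. The largest value was 0.70, between Fdps and Cyp51, followed by 0.69 between Srebf1, the SREBP that drives fatty acid genes, and the desaturase gene Scd2. Npc2 and Apoe followed at 0.66. These values describe libraries that share depth and cell makeup, and the largest of 561 are selected by size.

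The rest of the pathway was read from 50 further genes in 3 lists, 48 of them tested, and none passed adjustment in any comparison. Plin2, which coats lipid droplets, was higher in stenotic than in healthy solvent-treated valves by 1.31 ± 0.35 on the log2 scale and than in WT valves by 1.54 ± 0.37. Msr1, a macrophage scavenger receptor that takes up modified lipoprotein, was higher in stenotic than in healthy valves by 1.50 ± 0.45, and Lrp1, an uptake receptor, was lower by 0.60 ± 0.26. Of the 17 genes of efflux, LXR and uptake, 2 had an unadjusted p under 0.05 in that comparison, 1 in each direction. Of 16 tested further sterol genes, 1 did, Ggps1, lower by 0.56 ± 0.25, and of 15 tested fatty acid and droplet genes, 1 did, Plin2. That makes 4 of 48, against 9.6% of all genes tested. Against WT, Msmo1, a sterol oxidase, was higher in stenotic valves by 0.99 ± 0.46. In that comparison 5 of 48 had an unadjusted p under 0.05, 4 higher and 1 lower, against 10.4% of all genes tested. Between healthy N1het and WT valves 5 of 48 did, 1 higher and 4 lower, against 7.42% of all genes tested. For XCT790 against solvent in healthy N1het valves 4 of 48 did, all higher, against 2.65% of all genes, and 1.63% higher. For stenosis under XCT790 4 of 48 did, 3 higher and 1 lower, against 5.08%. For XCT790 in stenotic valves and for the interaction 0 of 48 did, against 3.35% and 2.98%. Averaged over both agents, 5 of the 17 efflux, LXR and uptake genes had an unadjusted p under 0.05 between stenotic and healthy N1het valves, 4 higher and 1 lower, as did 3 of 16 further sterol genes, all higher, and 1 of 15 fatty acid and droplet genes, also higher, against 11.5% of all genes tested. One of the 4 was Cd36, a fatty acid and lipoprotein receptor that was higher by 1.31 ± 0.50.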

How the data were processed

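The authors deposited 1 table of FPKM for 20872 genes in 21 libraries, per the file headers, with group means that equal the column means and marks of significance, 0 or 1, whose test the sources used here do not give. FastQC, HISAT2, SAMtools, Picard and mm9 are named in the submitters' processing notes, without versions. Every FPKM was a whole multiple of 1 read per gene and library within 0.01 reads (100% of nonzero values), and this gave the depth. Intervals and floors cover counting error only. The FPKM were tested as log2(FPKM + 1) with limma 3.58.1 (R 4.3.3, trend and robust) in 1 model of 5 group means over 21 libraries, for 14966 genes with a mean of 1 FPKM or more, with 8 comparisons and Benjamini-Hochberg adjustment over all genes in each. A fold on this scale understates the change of low genes. The script was tested on simulated data. Members and lists were chosen with earlier results of these data known. By rule, values per library are given for up to 12 members, those called and then those with the smallest unadjusted p. Library values of Cyp51, Soat1 and Fads2 are also given, outside this rule. Strand and shared reads of similar genes, such as Scd1 and Scd2, are not described in the sources used here. Alternatives covered the pseudocount, filter, scaling, samples, replicate block, depth, label field, heart muscle markers and single libraries.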

Additional observations from a re-analysis of the deposited data

Results flagged for a closer look

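Of 36 sets of 4 to 6 libraries examined for 12 members, 5 had 1 library far from the others, where chance gives about 1 in 20. Fdps was at 23.2 FPKM in N1het healthy 6, with the next library at 9.14 FPKM. Npc2 was at 212.5 FPKM in WT 2, with the next at 122.9 FPKM, and at 91.0 FPKM in N1het healthy 1, with the next at 173.9 FPKM. Idi1 was at 2.36 FPKM in N1het healthy 1, with the next at 1.18 FPKM. Srebf2 was at 7.12 FPKM in N1het healthy XCT790 3, with the next at 12.01 FPKM. Groups of 3 libraries were not examined this way.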

How the results depend on the processing

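No member was called in the other 7 comparisons under any alternative. None of 602 alternative values of 28 named differences changed sign. These differences were picked for an unadjusted limma p under 0.05 in the main fit, and the alternatives reuse the same libraries. A kept sign was therefore likely from the start and cannot show robustness. The 1 member called between stenotic and WT valves became 2, Nceh1 and Tmem97, with a pseudocount of 0.1 or median-of-ratios scaling. It became 0 with only the compared groups in the fit, with voom on recovered reads, with only libraries under 16000000 reads, with a term for deep libraries, with heart muscle markers as a covariate, and without WT 1, WT 4 and N1het healthy 3. Leaving out each library gave 0 to 0. Over the alternatives the limma adjusted p of Nceh1 ran from 0.0300 to 0.365. Replicate numbers did not pair libraries (same-number correlations of -0.11 to 0.13), and with the number as a block the count was 0 (Nceh1 2.08, adjusted p = 0.0697), with no other call changed. The members' median against WT was 0.32 with a mean of 5 FPKM or more and 0.31 with voom, and 0.059 to 0.34 over left-out libraries. By the second label it was 0.44 for XCT790 in healthy valves and -0.026 for stenosis under XCT790, which was 0.032 in libraries under 16000000 reads. The interaction median was -0.32 in those libraries and -0.34 to -0.033 over left-out ones. The cause was not tested. All genes called between stenotic and WT valves numbered 5, and 0 to 9 over the alternatives; voom called 3. The planned edgeR fit was not run, since the table holds FPKM.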
